A study of Rattus norvegicus with 4 samples.

Results

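The 43 genes described here encode the parts of the focal adhesion and of the stress fibres anchored in it. They were chosen by name as 10 integrin alpha chains, 3 integrin beta chains, 2 syndecans, 8 adaptors, 6 actin crosslinkers, 11 LIM domain proteins and 3 signalling proteins. Paxillin, Pxn, also carries LIM domains and was counted with the adaptors. Of these 43, 39 had a row of that symbol in the authors' probe table, where Itga8 appears under the placeholder name RGD1564327. Lpp and Tns1 were reached through an accession only, and no probe was found for Tln2 and Palld. Probes for 18234 named genes were found in all. A gene was tested where its probe, averaged over all 4 arrays, was brighter than the median probe, and 35 of the 43 genes passed. Itga2, Itga3, Itgb3, Tns1, Lpp and Pdlim3 were too dim.

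Cultured rat bone marrow cells were profiled with Agilent microarrays of a single colour, where labelled RNA copies bind to printed probes and the brightness of a spot reports the amount bound. High density cultures were measured on 2 arrays and regular density cultures, the control, on 2 arrays, all after 15 days and all from Wistar rats aged 6 weeks. The design text speaks of 2 independent experiments, but seeding numbers, media and the number of animals are not stated in the labels. The p-values therefore reflect the spread between these arrays alone, part of which may be technical. The submitters' source label is endothelial progenitor cells. Of 7 endothelial markers, only Cdh5 and Vwf were bright enough to test and neither was called, Cdh5 having an unadjusted p of 0.0460. Both were above background on all 4 arrays. Pecam1, Kdr, Tek, Cldn5 and Emcn were too dim. Of these, Pecam1 was above background on 1 of the 4 arrays, labelled regular density, and Kdr on 1, labelled high density. These are cultures of mixed cells, in which a change in the share of a cell type and a change in RNA per cell cannot be told apart.

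Focal adhesions are the sites where a cell grips the matrix. Integrins, each a pair of an alpha and a beta chain, bind matrix proteins outside the cell, and talin and kindlin bind the beta chain's tail inside and switch the integrin on. Vinculin, the ILK-PINCH-parvin complex and LIM proteins join the integrin to actin, while alpha-actinins and filamins tie actin into the contractile bundles called stress fibres. These structures are a textbook feature of adherent fibroblasts and smooth muscle cells, which pull on their matrix.

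The 75th percentile of intensity, by which each array was scaled, was 386 and 462 on the high density arrays, against 355 and 435 on the regular density arrays. Between 53.9% and 61.2% of probes were above background, the 99th percentile of each array's 153 negative control spots. Among 13683 features tested, 1780 were called higher at high density, which is 13.0%, and 2453 lower, which is 17.9%. This split depended on the scaling, with 1204 higher and 3246 lower under median scaling and 1393 higher and 578 lower with no scaling. The median change of all features was -0.08 in log2, -0.20 under median scaling and 0.03 with no scaling. All intensities below are scaled values in arbitrary units, all changes are high density minus regular density in log2, and each group has n = 2 arrays.

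The listed adhesion genes were mostly higher in high density cultures. The list was chosen with earlier results of these data known. The shares of all features beside its counts are therefore given for scale and are no test. Of the 35 tested, 25 were called higher, 1 (Itga7) was called lower and 9 were not called. Among all features, 13.0% were called higher and 17.9% lower. A rise of 2-fold or more was found for 13 of the 35, where 4.64% of all features were called higher by that much, and none fell by 2-fold, against 1.70% of all features. The 2 high density arrays both lay above both regular density arrays for 29 genes (28.0% of all features) and both below for Itga7 and Itgb5 (41.7% of all features), and the groups overlapped for 4. The median change was 0.56, with a range of -0.45 to 4.36. The gene with the highest change, Itga8, passed the brightness filter only through its high density arrays. Under median scaling 18 genes were called higher and 2 lower, and with no scaling 21 were higher and 0 lower.

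The roles had different median changes. The LIM proteins had the highest median change of the roles with 3 or more tested genes, 1.30 over 9 genes, followed by integrin alpha chains at 0.62 over 8, actin crosslinkers at 0.56 over 5, adaptors at 0.46 over 6 and signalling proteins at 0.01 over 3. Every tested crosslinker was called higher, as were 8 of 9 LIM proteins, 5 of 6 adaptors, 4 of 8 alpha chains and 1 of 3 signalling proteins. The share of all features called higher was 13.0%. The role counts and medians are descriptions of small lists, and the difference between roles was not tested. They also depend on the grouping, as Pxn, which has LIM domains and was not called, was counted with the adaptors.

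**Figure D1:**
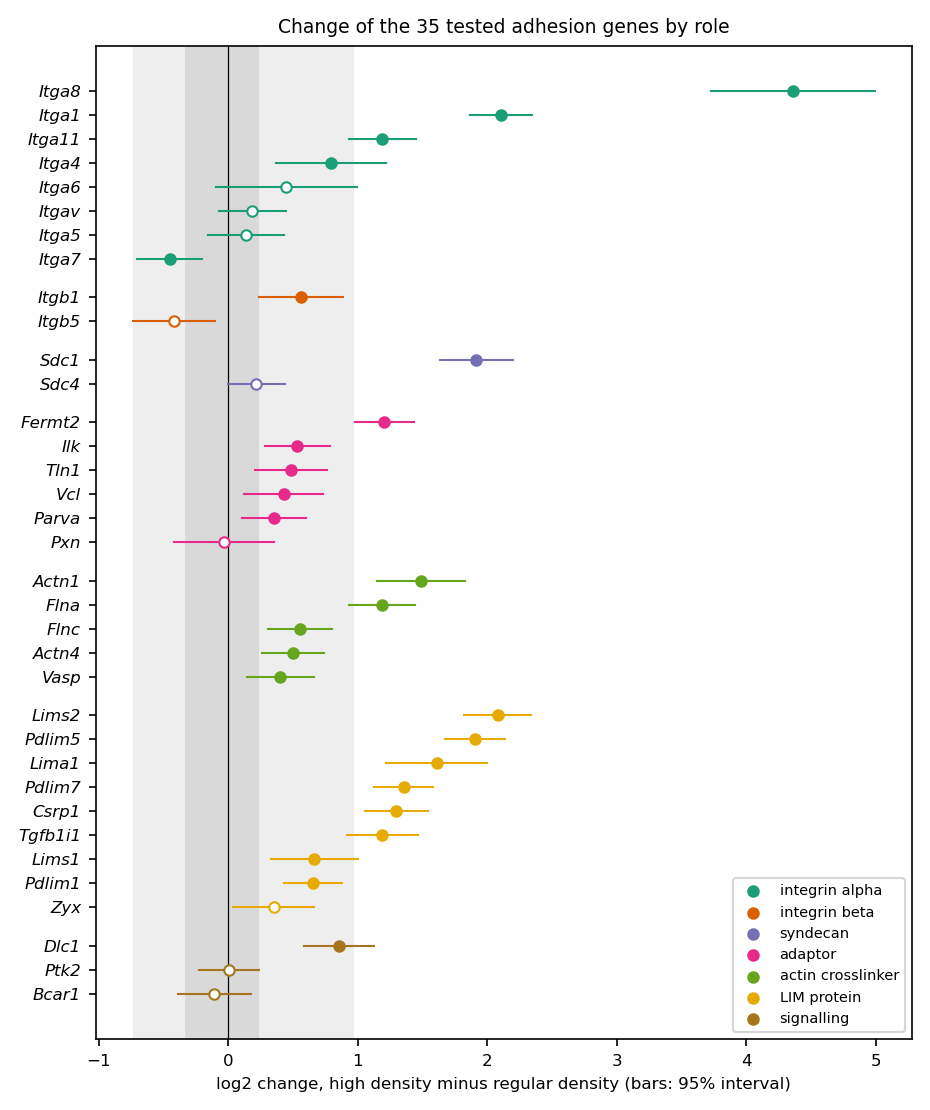
Log2 change, high density minus regular density, of the 35 tested adhesion genes grouped by role, with 95% intervals. Filled points passed the adjusted p threshold of 0.05 and open points did not. The dark grey band spans the 25th to 75th percentile of all 13683 features and the light band the 5th to 95th. Itga8 stands farthest right at 4.36, and Itga7 and Itgb5 are the lowest at -0.45 and -0.42.

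Among the integrins, the collagen receptor chains Itga1 and Itga11 and the RGD-binding chain Itga8 rose, while Itga5 and Itgav, the chains of the classical fibronectin and vitronectin receptors, were not called. Itga1, which with the beta 1 chain forms a receptor for collagen and laminin, read 1879 and 1932 at high density, against 423 and 462 at regular density. The change was 2.11 ± 0.10 (SE), or 4.31-fold (adjusted p = 1.19e-04). Its probe was printed 10 times on each array, with an SD of log2 intensity between spots of 0.06 to 0.12. The authors' table places it on chromosome 2 from 47107893 to 47112038, and that table names no assembly for its positions.

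Itga8 pairs with beta 1 and is known from mesenchymal and smooth muscle cells, and in the mouse from kidney development. It read 653 and 724 in high density cultures, against 25.2 and 44.5 in regular density cultures. The change of 4.36 ± 0.26 (SE), or 20.5-fold (adjusted p = 2.25e-04), was the 6th highest of all features tested. Only 1 of the 2 regular density arrays lay above background, so the size of the fold rests on readings near the detection limit. Itga8 passed the brightness filter only through its high density arrays. Its mean log2 intensity was 9.43 there and 5.07 at regular density, where the cut was 5.62. Of the 14 alternatives, 12 tested this gene, and the stricter filter and the mean over probes did not. Its 10 spots per array had SDs of 0.13 to 0.44 in log2. The other probe of this gene, reached by accession only, was much dimmer, at 31.2 and 58.0 at high density and 11.4 and 2.17 at regular density, and was above background on 1 high density array. The brighter probe lies on chromosome 17 from 86427344 to 86427403 in the authors' table.

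Itga11, the alpha chain of a fibrillar collagen receptor of fibroblasts, read 6000 and 5440 at high density and 2643 and 2371 at regular density. It rose by 1.19 ± 0.11 (SE), or 2.28-fold (adjusted p = 8.20e-04). Itga2, the alpha chain of a further collagen receptor, read 12.3 and 10.6 at high density and 21.2 and 10.8 at regular density and was below background on all 4 arrays. Of the 3 collagen-binding chains among the members, 2 were thus bright and higher, and 1 was not well above background anywhere.

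Itga4, which binds the cell surface ligand Vcam1 and fibronectin and is carried by leukocytes, read 106 and 114 at high density and 59.7 and 67.5 at regular density. The change of 0.79 ± 0.18 (SE), or 1.73-fold (adjusted p = 0.0186), was not called with no scaling (0.90, adjusted p = 0.0534) or without regular density replicate 1 (0.71, adjusted p = 0.0603).

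Of 3 further chains that bind laminin, as Itga1 does, Itga7 was called lower, Itga6 was not called and Itga3 was too dim to test. Itga7, a laminin receptor chain of muscle, read 233 and 231 at high density and 327 and 309 at regular density, so the groups did not overlap. Its change of -0.45 ± 0.10 (SE; adjusted p = 0.0213) was the only called fall, 1.37-fold higher in regular density cultures. This call was lost with no scaling (-0.35), without replicate 1 (-0.46) or 2 (-0.45) of high density, and without replicate 1 of regular density (-0.41). Itga6 read 88.2 and 94.1 at high density and 55.7 and 79.9 at regular density, a change of 0.45 (adjusted p = 0.176, 95% interval -0.10 to 1.00). Itga3 read 16.9 and 13.3 at high density and 13.7 and 10.9 at regular density, below background on every array.

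Itga5, the fibronectin receptor chain, read 664 and 554 at high density and 570 and 532 at regular density, and the groups overlapped. Its change of 0.14 had an adjusted p of 0.410 and a 95% interval of -0.15 to 0.43. Itgav, which pairs with several beta chains, read 335 and 333 at high density and 309 and 278 at regular density, a change of 0.19 (adjusted p = 0.226, interval -0.07 to 0.45). For both chains the interval reaches neither the rise of Itga11 nor that of Itga1. The difference between chains was not tested.

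Of the 3 beta chains, Itgb1 was called higher, Itgb5 was not called and Itgb3 was too dim to test. Itgb1, the partner shared by most of these alpha chains, read 39523 and 33796 at high density and 27038 and 22591 at regular density. It rose by 0.56 ± 0.13 (SE), or 1.48-fold (adjusted p = 0.0233). Its other probe, printed 10 times, read 1031 and 1204 against 665 and 764 at regular density and was also called higher (0.64, adjusted p = 0.0118). The call on the brighter probe was lost under median scaling (0.44), without high density replicate 1 (0.45) and without regular density replicate 2 (0.43).

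Itgb5, a partner of the alpha v chain, read 3421 and 3125 at high density and 4878 and 3921 at regular density, with both high density arrays below. The change of -0.42 missed the threshold (adjusted p = 0.0536, interval -0.74 to -0.10). Its other probe, whose start lies 1724 bases away in the authors' table, read 337 and 343 at high density against 587 and 575 at regular density and was called lower (-0.77 ± 0.10 SE, adjusted p = 0.00266). The brighter probe was called lower under median scaling (-0.54, adjusted p = 0.0422), with no filter on dim probes (adjusted p = 0.0224), with the stricter filter (adjusted p = 0.0361), with the mean over both probes (-0.60, adjusted p = 0.00880) and without regular density replicate 2 (-0.58, adjusted p = 0.0158). Itgb3, the other alpha v partner listed, read 26.9 and 33.7 at high density and 11.4 and 13.9 at regular density, with 1 high density array and no regular density array above background.

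**Figure D2:**
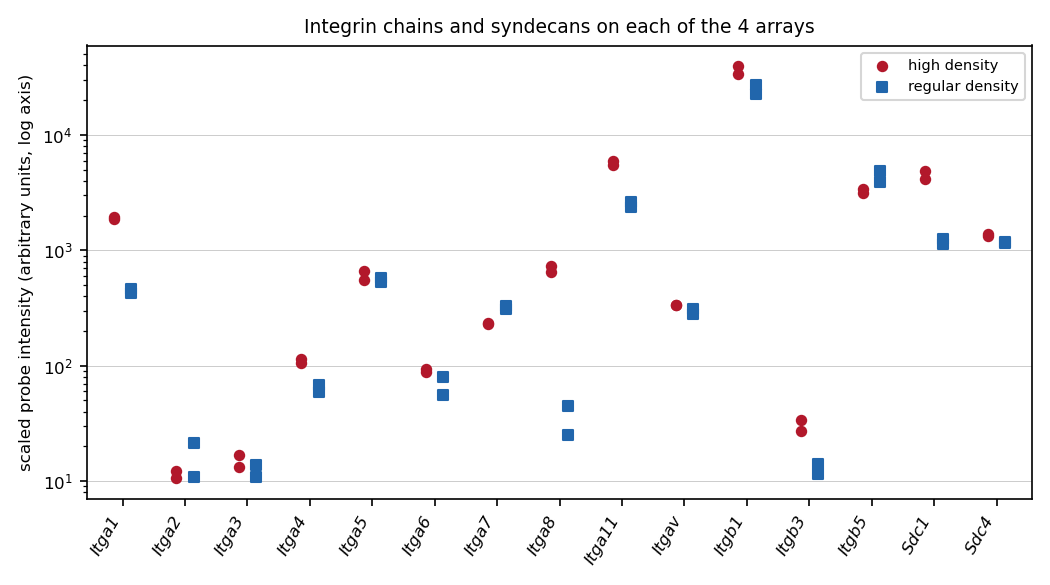
Scaled probe intensity on a log axis for the integrin chains and syndecans, with the 2 high density arrays (red circles) left of the 2 regular density arrays (blue squares) for each gene. Itga8 has the widest gap, 653 and 724 against 25.2 and 44.5, and Itga2, Itga3 and Itgb3 lie near background. Different probes bind with different strength, so heights are not to be compared between genes.

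Syndecans are membrane proteoglycans that bind the same matrix proteins as integrins through their sugar chains. Sdc1 read 4165 and 4869 at high density and 1135 and 1254 at regular density. It rose by 1.92 ± 0.12 (SE), or 3.78-fold (adjusted p = 2.28e-04), and its probe lies on chromosome 6 from 32275097 to 32275156 in the authors' table. Sdc4, the syndecan best known from focal adhesions, read 1377 and 1340 at high density and 1180 and 1157 at regular density. Both high density arrays were above, but the change of 0.22 was not called (adjusted p = 0.120, interval -0.00 to 0.44). A dimmer probe of Sdc4 read 41.5 and 56.6 at high density and 13.0 and 24.0 at regular density, above background at high density only (1.46, adjusted p = 0.0144 in a fit of all probes with no filter). With the mean over both probes Sdc4 was called higher (0.84, adjusted p = 0.0163).

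Of 6 tested adaptors, 5 were called higher, kindlin-2 by more than 2-fold and the other 4 by less, and paxillin was not called. Fermt2, which encodes kindlin-2 and activates integrins together with talin, read 2640 and 2634 at high density and 1108 and 1179 at regular density. It rose by 1.21 ± 0.09 (SE), or 2.31-fold (adjusted p = 4.43e-04), and none of the 14 alternatives changed its call. Talin itself, Tln1, read 19297 and 16369 at high density and 13041 and 12349 at regular density, a 1.40-fold rise (0.49, adjusted p = 0.0234) that was lost under median scaling (0.36), without high density replicate 1 (0.37) and without regular density replicate 2 (0.45). Its paralogue Tln2 had no probe.

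ILK, PINCH and parvin form the complex that joins the beta chain to actin. Ilk rose 1.45-fold (0.53, adjusted p = 0.0125), a call lost under median scaling (0.41) and without high density replicate 1 (0.46). Parva, the parvin of most tissues, rose 1.28-fold (0.35, adjusted p = 0.0427). That call was lost under median scaling (0.23), with no scaling (0.46), without a variance trend, and without replicate 1 (0.35) or 2 (0.36) of high density or replicate 2 of regular density (0.27). The PINCH genes Lims1 and Lims2 rose as well, and by unequal amounts given with the LIM proteins below.

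Vinculin, Vcl, which strengthens the bond between talin and actin under load, read 810 and 980 at high density and 627 and 699 at regular density. This 10-spot probe rose 1.35-fold (0.43, adjusted p = 0.0455), and the call was lost under quantile scaling (0.45), median scaling (0.30), no scaling (0.53), the authors' normalized values (0.44) and no variance trend, without high density replicate 2 (0.29) and without regular density replicate 1 (0.35). The dimmer probe of Vcl, starting 1398 bases away, read 197 and 199 at high density and 86.2 and 75.7 at regular density. It rose by 1.29 ± 0.14 (SE), or 2.45-fold (adjusted p = 0.00172), so the probes share a direction and differ in size. Paxillin, Pxn, a docking protein for kinases, read 501 and 492 at high density and 596 and 433 at regular density, with overlapping groups (-0.03, adjusted p = 0.893, interval -0.42 to 0.35). Its sign was positive with no scaling (0.074) and without regular density replicate 1 (0.20). Tns1, a tensin that ties integrins to actin in fibrillar adhesions, read 16.4 and 17.6 at high density and 14.7 and 7.18 at regular density, below background throughout.

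All 5 actin crosslinkers and actin regulators with a tested probe were called higher. Actn1, the non-muscle alpha-actinin found along stress fibres, read 7903 and 6613 at high density and 2847 and 2324 at regular density. It rose by 1.49 ± 0.14 (SE), or 2.81-fold (adjusted p = 9.89e-04). Its paralogue Actn4 read 19933 and 20324 at high density and 14867 and 13627 at regular density, a 1.41-fold rise (0.50, adjusted p = 0.0134). The 95% intervals, 1.15 to 1.83 for Actn1 and 0.26 to 0.74 for Actn4, do not meet. The difference between these genes was not tested, and probes of the same gene can also differ in size, as for Vcl above. The Actn4 call was lost under median scaling (0.37) and without replicate 1 (0.51) or 2 (0.49) of high density.

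Flna, the widely expressed filamin that crosslinks actin into networks and binds beta integrin tails, read 21687 and 20424 at high density and 9769 and 8751 at regular density. It rose by 1.19 ± 0.11 (SE), or 2.28-fold (adjusted p = 7.69e-04). Flnc, the filamin best known from striated muscle, read 719 and 757 at high density and 526 and 478 at regular density, a 1.47-fold rise (0.56, adjusted p = 0.0102). Vasp, which promotes actin filament growth at adhesions, rose 1.32-fold (0.40, adjusted p = 0.0318). The Vasp call was lost under median scaling (0.28), no scaling (0.51) and no variance trend, and without replicate 1 (0.35) or 2 (0.46) of high density or replicate 2 of regular density (0.32). Palld, which encodes palladin, had no probe.

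LIM proteins carry paired zinc fingers that bind other adhesion proteins and, in several members, strained actin. Of the 11 listed, 6 rose 2-fold or more. Lims2, PINCH2, read 888 and 815 at high density and 193 and 210 at regular density. It rose by 2.08 ± 0.11 (SE), or 4.23-fold (adjusted p = 1.59e-04). Lims1, PINCH1, read 203 and 179 at high density and 115 and 125 at regular density, a 1.59-fold rise (0.67, adjusted p = 0.0149) that was lost without high density replicate 1 (0.58). The intervals of the 2 PINCH genes do not meet, 1.82 to 2.34 for Lims2 and 0.33 to 1.00 for Lims1. Here too the difference between genes was not tested.

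The PDZ-LIM proteins bind alpha-actinin through their PDZ domain. Pdlim5, also called ENH, read 1056 and 1092 at high density and 292 and 281 at regular density, a rise of 1.91 ± 0.10 (SE), or 3.75-fold (adjusted p = 1.42e-04). Pdlim7, Enigma, read 16290 and 16472 at high density and 6536 and 6270 at regular density, a rise of 1.36 ± 0.09 (SE), or 2.56-fold (adjusted p = 3.08e-04). The other probe of Pdlim7 read 125 and 146 at high density and 38.5 and 44.4 at regular density and rose 3.27-fold (1.71, adjusted p = 0.00190). Pdlim1 rose 1.57-fold (0.65, adjusted p = 0.00442), with 10 spots whose log2 SDs ran from 0.07 to 0.11. Pdlim3, the PDZ-LIM protein of skeletal and heart muscle, read 14.8 and 13.6 at high density and 13.3 and 14.9 at regular density, below background on all arrays.

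Csrp1, a LIM protein of smooth muscle and other contractile cells, read 1736 and 1699 at high density and 663 and 736 at regular density, and rose by 1.30 ± 0.10 (SE), or 2.46-fold (adjusted p = 4.32e-04). Tgfb1i1, which encodes Hic-5, the paxillin relative of smooth muscle and fibroblasts, read 891 and 896 at high density and 425 and 360 at regular density. It rose by 1.19 ± 0.11 (SE), or 2.28-fold (adjusted p = 0.00104), while paxillin itself was not called. The 95% intervals of these paralogues, 0.92 to 1.47 for Tgfb1i1 and -0.42 to 0.35 for Pxn, do not meet. Their difference was not tested either. Zyxin, Zyx, read 4758 and 4242 at high density and 3884 and 3193 at regular density, above on both arrays but short of the threshold (0.35, adjusted p = 0.0831, interval 0.04 to 0.66). Zyx was called higher without regular density replicate 1 (0.49), under quantile scaling (0.46), with the authors' normalized values (0.46), with the mean over both probes (0.42) and through its other probe (0.48, adjusted p = 0.0184). Its relative Lpp read 23.0 and 27.4 at high density and 11.3 and 6.62 at regular density, above background on 1 high density array.

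Lima1, which encodes EPLIN, a protein that bundles and stabilises actin filaments, read 150 and 155 at high density and 49.9 and 49.9 at regular density. It rose by 1.61 ± 0.16 (SE), or 3.05-fold (adjusted p = 0.00125).

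**Figure D3:**
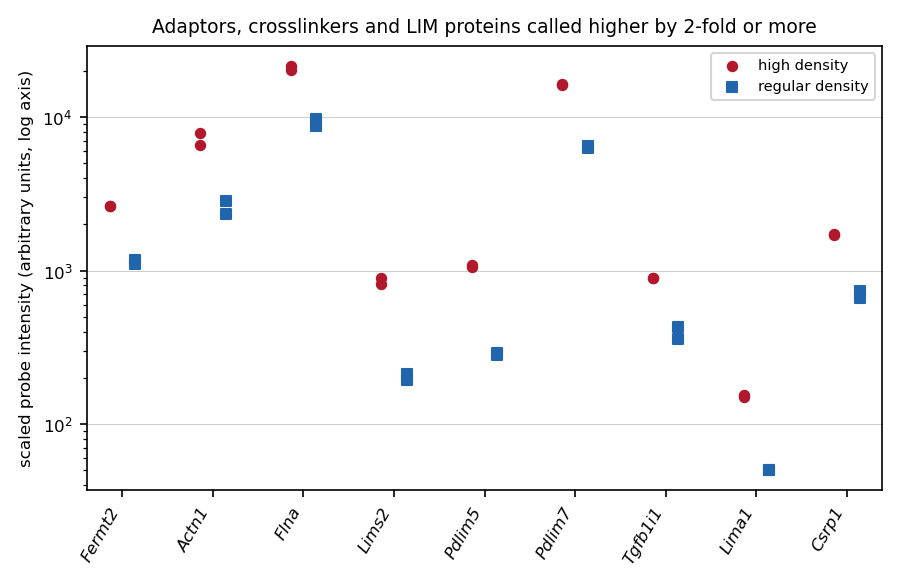
Scaled probe intensity on a log axis for the 9 adaptors, crosslinkers and LIM proteins called higher by 2-fold or more, with the 2 high density arrays (red circles) left of the 2 regular density arrays (blue squares). In every gene both high density arrays lie above both regular density arrays. Lima1 has the lowest readings, 150 and 155 against 49.9 and 49.9.

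Promoters were searched for a pair of motifs known from actin cytoskeleton genes, because so many of these genes moved together. RefSeq promoter windows of the GRCr8 assembly, from 250 bases before to 50 bases after the start, were at hand for 32 of the 43 genes. The CArG box, the motif bound by serum response factor, was searched on both strands and lay in 1 of the 32 windows, 3.12%, and in 548 of 33469 promoters, 1.64%. The motif CATTCC, bound by TEAD factors, lay on either strand in 7 of the 32 windows, 21.9%, and in 4749 of all promoters, 14.2%. Those 7 were Flna, Flnc, Itga3, Itga4, Itgb1, Vcl and Zyx, of which 5 were called higher. Among all 32 genes with a window, 21 were called higher. Of the 12 matched genes that rose 2-fold or more, 1 window, Lima1, held the CArG box and 1, Flna, held CATTCC. These matches describe the letters in the windows and no binding. Both windows are printed 5′ to 3′ on the minus strand of GRCr8 with the motif in capitals.
Lima1, chr7:132880294-132880593: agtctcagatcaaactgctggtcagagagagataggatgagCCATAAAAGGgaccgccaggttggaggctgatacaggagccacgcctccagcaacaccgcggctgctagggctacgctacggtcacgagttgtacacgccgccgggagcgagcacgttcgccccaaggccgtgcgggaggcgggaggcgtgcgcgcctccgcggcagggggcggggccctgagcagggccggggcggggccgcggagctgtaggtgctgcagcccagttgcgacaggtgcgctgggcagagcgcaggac
Flna, chrX:157182294-157182593: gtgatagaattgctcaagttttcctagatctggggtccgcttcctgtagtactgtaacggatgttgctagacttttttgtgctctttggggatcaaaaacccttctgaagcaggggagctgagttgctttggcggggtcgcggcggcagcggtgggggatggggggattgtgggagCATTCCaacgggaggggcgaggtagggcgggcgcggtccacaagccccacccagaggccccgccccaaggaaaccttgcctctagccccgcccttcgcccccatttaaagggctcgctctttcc
The motif begins 209 bases before the start in Lima1 and 74 bases before it in Flna.

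Of the 3 signalling proteins of the adhesion, Dlc1 was called higher, and Ptk2 and Bcar1 were not called. Ptk2, focal adhesion kinase, read 494 and 480 at high density and 494 and 472 at regular density on a 10-spot probe. Its change of 0.01 had a 95% interval of -0.22 to 0.24 (adjusted p = 0.943), and its sign turned under median scaling (-0.11), without high density replicate 1 (-0.0098) and without regular density replicate 2 (-0.023). Bcar1, the p130Cas scaffold phosphorylated by that kinase, read 2762 and 2431 at high density and 2989 and 2598 at regular density, with overlapping groups (-0.11, adjusted p = 0.529, interval -0.39 to 0.18). The other probe of Bcar1 read 434 and 433 at high density and 609 and 505 at regular density (-0.36, adjusted p = 0.0664). Dlc1, a GTPase-activating protein that switches off RhoA at adhesions, read 298 and 287 at high density and 167 and 157 at regular density. It rose by 0.85 ± 0.11 (SE), or 1.81-fold (adjusted p = 0.00343).

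A pair of probes was present for 9 of the genes, and the changes of both probes had the same sign in all 9. For Pxn and Bcar1 neither probe was called, and the other probe of Pxn was below background on all arrays. Sizes differed most for Itga8, Sdc4 and Vcl, and for Itga8, Sdc4 and Pxn the other probe was too dim to test. The dimmer probe had the larger positive change for Sdc4, Vcl, Pdlim7, Itgb1 and Zyx and the smaller for Itga8.

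**Figure D4:**
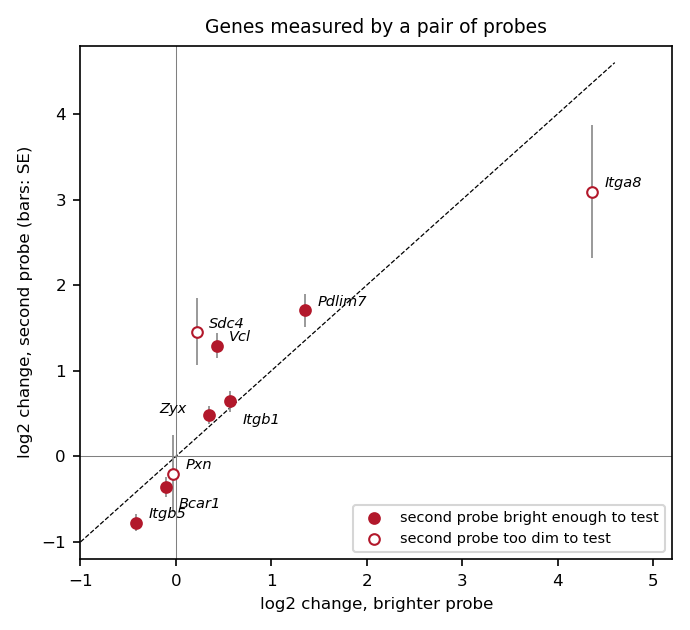
Log2 change, high density minus regular density, of the dimmer probe (y, bars are SE) against that of the brighter probe (x) for the 9 genes with a pair of probes. The dashed line marks equal change. Open circles are probes too dim to test. All 9 genes lie in a quadrant where both probes have the same sign, and Vcl (0.43 and 1.29) lies well above the line.

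Adhesion genes outside the 43 were read for comparison from a list of 73 further genes. Of 13 other integrin chains, 5 could be tested and limma called none, with Itgal and Itga10 at an unadjusted p under 0.05. The leukocyte chain Itgb2 read 1489 and 1606 at high density and 1644 and 2236 at regular density (-0.31, adjusted p = 0.177), and its partner Itgam read 2583 and 2431 at high density and 2523 and 2137 at regular density (0.11, adjusted p = 0.494). Itgal was at -0.44 (adjusted p = 0.0576), Itga10, a collagen receptor chain of cartilage, at 0.49 (adjusted p = 0.110) and Itgb4 at -0.40 (adjusted p = 0.209). No probe was found for Itga9 and Itgb8.

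Of 60 other adhesion components, 50 were tested, 22 were called higher, 9 of them by 2-fold or more, and 3 were called lower. Among all features, 13.0% were called higher, 4.64% were called higher by 2-fold or more, and 17.9% were called lower. The smallest p belonged to Csrp2, the smooth muscle relative of Csrp1, at 2290 and 2306 in high density cultures and 409 and 375 in regular density cultures (2.55, 5.87-fold, adjusted p = 8.09e-05). Nexn, an actin-binding protein of adhesions and Z-discs, followed at 1644 and 1799 against 320 and 351 at regular density (2.36, 5.13-fold, adjusted p = 1.15e-04). Sorbs2, a vinculin-binding adaptor, read 1437 and 1298 at high density and 228 and 181 at regular density (2.75, 6.72-fold, adjusted p = 1.45e-04). The LIM proteins Fhl1 (1.61, adjusted p = 2.11e-04) and Lmcd1 (1.97, adjusted p = 2.65e-04) and the syndecan Sdc3 (1.44, adjusted p = 2.97e-04) also rose.

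These components were also grouped by kind, after their values were seen. Of 18 further LIM proteins 14 were tested, 10 were called higher and none lower, with a median change of 0.51. Of 13 kinases, phosphatases and signalling scaffolds all were tested, 2 were called higher, 2 lower and 9 not called, with a median of 0.01. The counts of this last group lie near the shares of all features, 13.0% higher and 17.9% lower. The group left out the kinases Rock1 (0.43, adjusted p = 0.0298) and Rock2 (0.91, adjusted p = 0.00413), both called higher. Its counts therefore depend on how it was drawn. The called falls among all 60 were Git1 (-0.52, adjusted p = 0.00923) and Dock1 (-0.44, adjusted p = 0.0192), both signalling scaffolds, and the tensin Tns2 (-0.38, adjusted p = 0.0437).

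**Figure D5:**
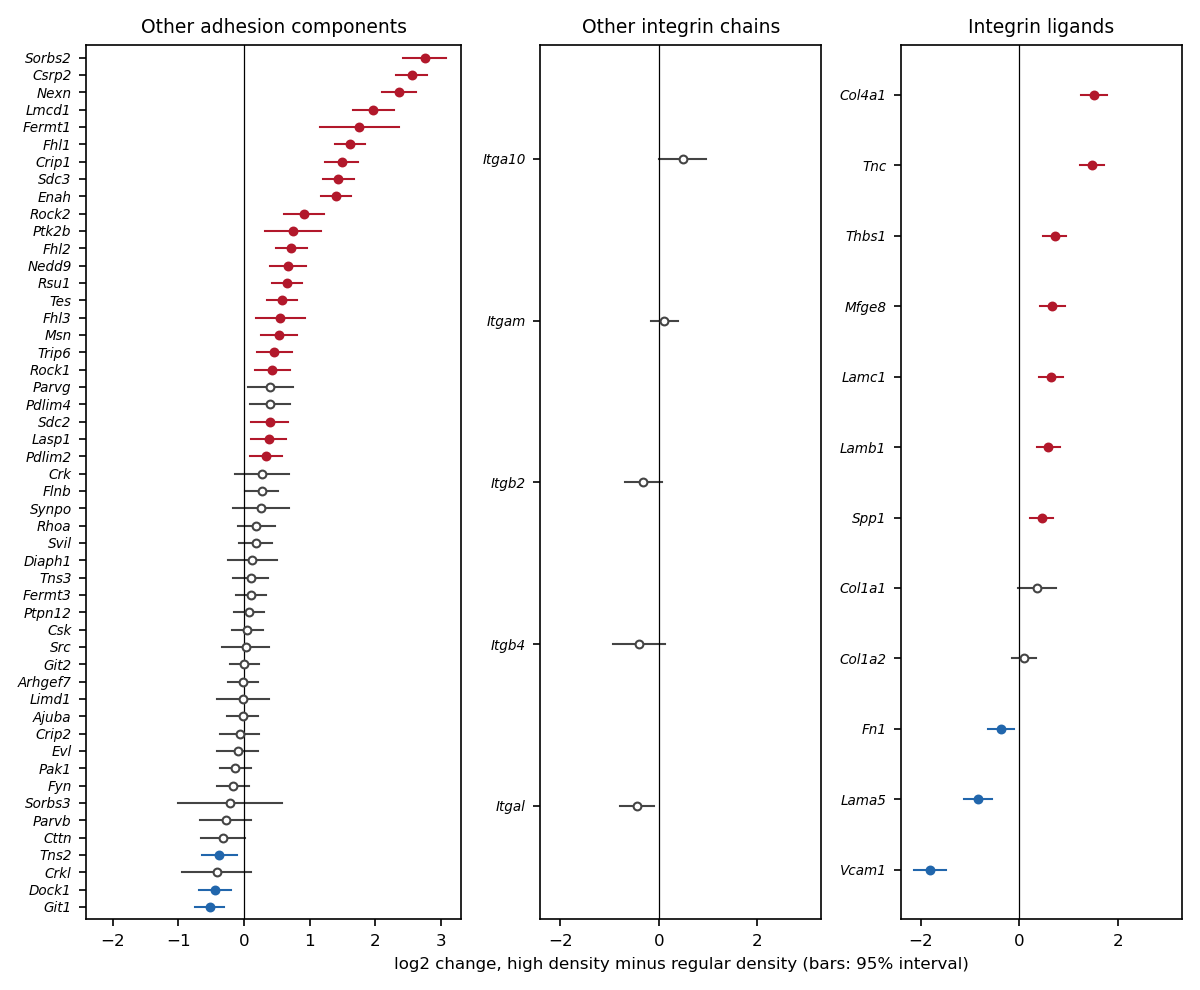
Log2 change, high density minus regular density, with 95% intervals, of the tested adhesion genes outside the 43: other adhesion components (left), other integrin chains (middle) and integrin ligands (right). Red points were called higher at high density, blue points lower, and open points were not called. None of the 5 other integrin chains was called, and Sorbs2, Csrp2 and Nexn have the largest rises.

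Markers of several cell types were read on the same arrays. The summed intensity of 8 smooth muscle markers was 121231 and 120369 at high density, against 20045 and 19003 at regular density, a ratio of 6.19. Of the 6 tested, 5 were called higher, against 13.0% of all features. Acta2 and Tagln carried most of that sum, and Myocd and Lmod1 were too dim to test. Acta2 rose by 3.06 and Myh11 by 5.18, whereas Des, desmin, read 62.7 and 53.7 at high density and 88.6 and 70.3 at regular density and was not called (-0.44, adjusted p = 0.168). The sum of 11 macrophage markers was 101292 and 96733 at high density and 94614 and 86431 at regular density, a ratio of 1.09, with Aif1, Adgre1 and C1qa called higher, Cd14 lower and Cd163 below background on all arrays. The sum of 6 fibroblast markers, some of them collagens that other matrix-making cells also express, was 178450 and 157665 at high density and 154941 and 136872 at regular density, a ratio of 1.15. Col1a1 and Col1a2, neither of them called, carried most of that sum. Of the other fibroblast markers, Thy1 was called higher (2.30-fold, adjusted p = 0.00220), as was Lum (1.32-fold, adjusted p = 0.0278), Dcn was called lower (-1.34, adjusted p = 2.97e-04) and Pdgfra was not called. The platelet marker sums had a ratio of 1.13 and the endothelial ones 1.06. Pf4, which was not called, carried most of the platelet sum, while Gp1bb was called higher (1.68-fold, adjusted p = 0.00970). Gp9 and Ppbp were below background on all arrays, and Itga2b had no probe. The 5 called smooth muscle markers thus moved in the same direction as most of the adhesion genes, and their part in these changes was not tested.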

How the data were processed

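The authors deposited a linear intensity for each spot, which the file header describes as the signal after the scanner software's last step, and the submitters' processing notes name Agilent Feature Extraction 11.0.1.1. The authors also deposited normalized log2 values for 21473 probes, used here as an alternative; their normalization method is not given in the sources used here. Of 44254 spots per array, 1377 were controls and were left out. Repeated spots were averaged in log2, giving 30367 probes, of which 8823 stayed unnamed after matching to the authors' table and RefSeq names. Each array was scaled on its 75th percentile, and the brightest probe stood for its gene.

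Features with a mean log2 intensity above 5.62, the median of all probes, were tested with limma 3.58.1 in R 4.3.3 (moderated variances with an intensity trend, 2-sided, Benjamini-Hochberg over 13683 features, threshold 0.05). There were 2 residual degrees of freedom, to which moderation added 4.43. The number of arrays limits the precision. Probes of a pair were fitted with every probe as its own feature. Genes named with values on each array were all integrin chains and syndecans and other members called with a 2-fold change or more; further ones were up to 4 per role, and up to 6 per comparison list, with the smallest p, plus Itgb2, Itgam, Itga9, Itgb8 and Npnt. Values for Pxn, Tns1, Lpp, Pdlim3, Git1, Dock1, Tns2 and single cell type markers were added after they were seen. Alternatives were quantile, median and no scaling, an intensity floor of 32, the authors' values, no filter and a stricter one, the mean over probes, no variance trend, a replicate block and each array left out. The other probe of a gene was added after seeing the data. The model was also run on simulated arrays with independent noise and far fewer changed features than were called here. That run is therefore no check of the calls reported. Members and lists were chosen with earlier results of these data known. Plots used Python 3.11.15, pandas 2.3.3 and matplotlib 3.10.9.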

Additional observations from a re-analysis of the deposited data

How the results depend on the processing

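All 26 called members kept their direction under each of the 14 alternatives that tested them, and 16 of them, among them Itga1, Itga8, Itga11, Sdc1, Fermt2, Actn1, Flna and the 6 LIM proteins that rose 2-fold or more, also kept the call. The stricter filter left 27 members tested. The members called higher numbered 18 to 27 across the alternatives. The members called lower numbered 2 under median scaling, with no filter on dim probes, with the mean over a gene's probes and with the replicate block, 0 with no scaling, and 0 to 2 with 1 array left out. Other adhesion genes called lower numbered 3 in the reported fit, 0 with no scaling, 7 with the replicate block and 1 to 4 with 1 array left out. All changed features numbered 4233, against 1971 with no scaling, 7010 with the replicate block and 2412 to 3976 with 1 array left out, the lowest without high density replicate 1. The sign turned for Pxn with no scaling (0.0735), for Bcar1 with no scaling (0.0003) and for Ptk2 under median scaling (-0.11). With 1 array left out, Pxn ranged from -0.26 to 0.20 and Ptk2 from -0.0229 to 0.0438. The cause was not tested. With the replicate number as a block, 27 members were called higher and 2 lower, adding Zyx (adjusted p = 0.00595) and Sdc4 (adjusted p = 0.0488) to the higher and Itgb5 (adjusted p = 0.00263) to the lower. The difference between the high density replicates correlated with that between the regular density replicates over features at 0.37. Before scaling, the negative control median was 13.4 (high density) and 10.5 (regular density) for replicate 1. For replicate 2 it was 1.93 (high density) and 1.99 (regular density). There are only 2 such pairs, and the labels do not say that a number marks a shared experiment. Whether arrays with the same number share an experiment is therefore not known. Members below background, such as Itga2, Itga3 and Pdlim3, had no measurable level here.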

Other observations

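Matrix and cell surface ligands of these integrins did not all follow their receptors. Of 16 ligand genes, 12 were tested, 7 were called higher and 3 lower at high density. The shares of all features were 13.0% higher and 17.9% lower. Tnc, the matrix protein tenascin-C, read 7404 and 7574 in high density cultures and 2559 and 2837 in regular density cultures (1.47, adjusted p = 2.97e-04). Col4a1, the basement membrane collagen chain bound by Itga1, read 14097 and 14185 at high density and 5290 and 4635 at regular density (1.51, adjusted p = 3.12e-04). Thbs1, thrombospondin-1, rose by 0.72 (adjusted p = 0.00369) and the laminin chain Lamc1 by 0.65 (adjusted p = 0.00609).

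The 3 ligands called lower were Vcam1, Lama5 and Fn1. Vcam1, a ligand of Itga4, read 67.2 and 70.6 at high density and 249 and 235 at regular density (-1.81, adjusted p = 3.90e-04), the opposite direction to Itga4 itself. Lama5, a laminin chain, read 171 and 170 at high density and 326 and 284 at regular density (-0.84, adjusted p = 0.00467). Fn1, fibronectin, which was chosen after its values were seen, read 35558 and 37927 at high density and 44618 and 50555 at regular density (-0.37, adjusted p = 0.0468). No probe was found for Npnt, which encodes nephronectin, a ligand of Itga8 but not its only one.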
